A study of Mus musculus with 12 samples.

Results

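Uteri of mice that carried the Hoxd9,10,11 mutation on both copies of chromosome 2 were compared with uteri that carried it on 1 copy or on none, by RNA sequencing. The 2 Hoxd-null uteri were the Hoxd-null library (Hoxd9,10,11-/-) and the compound Hoxd-null library (Hoxd9,10,11-/- with Hoxa9,10,11+/-, so with 1 mutant Hoxa copy). They were set against WT, Hoxa-null (Hoxa9,10,11-/-) and compound Hoxa-null (Hoxa9,10,11-/- with Hoxd9,10,11+/-) uteri. These 5 libraries were taken from the 12 of the series, which also holds the vasa deferentia of these 5 genotypes, the WT oviduct and the WT caudal epididymis. All mice had a mixed CD1/129 background and were 3 to 7 months old, and the females were collected in diestrus. Each library was made from the pooled RNA of 3 animals, and there was 1 library per genotype. No difference therefore has a replicate check, and no error or p-value is given. The compound Hoxa-null uterus carried 1 mutant Hoxd copy, so only the WT and Hoxa-null libraries were free of mutant Hoxd copies. The kind of allele is not given in the sources used here.

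Hox genes of groups 9 to 11 encode homeodomain transcription factors that give the segments of the female tract, from oviduct to uterus and cervix, their identity. In the adult uterus they are expressed in stroma, muscle and epithelium, and in mice the Hoxa members are known for their part in implantation. The uterus in diestrus also holds resident and recruited leukocytes, and its epithelium secretes and absorbs the fluid of the lumen under control of the ovarian steroids.

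A gene was counted as separating when both Hoxd-null libraries lay at least 1 log2 unit, or 2-fold, above all 3 other uteri, or below all 3. Of 31618 genes, 18697 were not constant over the 5 uteri. By this rule 184 genes were higher and 79 were lower in both Hoxd-null uteri, which is 0.984% and 0.423% of the genes that were not constant. Normalised reads are reads times 1 factor per library, recovered from the deposited log2 values where these allowed it, and levels of different genes cannot be compared because they are not per length. For other genes the deposited value is given, a log2 level centred on the gene's median over the 6 female libraries. Measured genes were those whose highest uterus reached 20 normalised reads or whose level could not be read from the deposited values. A gene that reached this level only in the Hoxd-null uteri, or only in the others, thus also entered. Among 15695 measured genes, 138 (0.879%) were higher and 47 (0.299%) were lower, and the rest of the text refers to these. Their levels could be read for 89 higher and 30 lower genes. The gap between the nearest libraries of both sides had a median of 1.23 log2 units among the higher and 1.24 among the lower genes. It was 4-fold or more for 18 higher and 8 lower genes.

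The promoters of 8 genes on which the results turn are shown first, as the bases before the transcript start, 5′ to 3′ on the gene's own strand, from RefSeq on build GRCm38.p6. The deposited files use mm9 positions, which were not converted. S100a8 and S100a9, next to each other on chromosome 3, encode the pair of calcium-binding proteins that make up calprotectin, the main cytosolic protein of neutrophils, and were among the higher genes with the widest gaps. Their 250-base windows lie at chr3:90668821-90669070 (plus strand) and chr3:90695722-90695971 (minus strand). Capitals mark the TATA-box letters TATAAA with, where present, the overlapping posterior Hox letters TTTATNG on the other strand, and the letters TTGCNNAA (a C/EBP site) and GAGGAAGT (a PU.1 site), each on either strand.
S100a8: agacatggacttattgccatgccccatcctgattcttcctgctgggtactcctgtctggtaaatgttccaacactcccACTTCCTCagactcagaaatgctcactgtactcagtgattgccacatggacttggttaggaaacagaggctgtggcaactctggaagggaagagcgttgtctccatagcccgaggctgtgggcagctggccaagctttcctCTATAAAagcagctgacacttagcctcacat
S100a9: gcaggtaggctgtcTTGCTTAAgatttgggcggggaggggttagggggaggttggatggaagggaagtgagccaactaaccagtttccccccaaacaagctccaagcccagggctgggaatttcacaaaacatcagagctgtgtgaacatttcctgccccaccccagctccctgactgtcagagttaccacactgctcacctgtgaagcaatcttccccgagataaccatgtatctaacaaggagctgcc

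The Sprr2 genes encode small proline-rich proteins of the epithelial surface, and Sprr2b, Sprr2d, Sprr2e and Sprr2i were higher in both Hoxd-null uteri. They form a row of related copies on chromosome 3. Their last 150 bases before the start lie at chr3:92316555-92316704 (plus strand), chr3:92338990-92339139 (plus strand), chr3:92351993-92352142 (plus strand) and chr3:92407841-92407990 (plus strand), and capitals also mark the octamer letters ATTTGCAT.
Sprr2b: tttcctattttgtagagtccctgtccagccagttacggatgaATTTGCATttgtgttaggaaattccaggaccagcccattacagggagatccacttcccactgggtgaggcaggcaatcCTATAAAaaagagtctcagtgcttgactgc
Sprr2d: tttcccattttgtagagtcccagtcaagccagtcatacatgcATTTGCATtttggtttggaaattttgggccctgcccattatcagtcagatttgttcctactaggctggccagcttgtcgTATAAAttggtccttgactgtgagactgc
Sprr2e: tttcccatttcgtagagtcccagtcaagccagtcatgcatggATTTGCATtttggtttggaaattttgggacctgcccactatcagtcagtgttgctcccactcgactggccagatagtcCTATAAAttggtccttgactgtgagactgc
Sprr2i: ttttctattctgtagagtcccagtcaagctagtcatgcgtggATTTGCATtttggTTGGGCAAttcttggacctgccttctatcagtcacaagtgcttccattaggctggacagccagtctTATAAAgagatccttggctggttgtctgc
All 4 windows hold the octamer with its first base 108 bases before the start and TATAAA 29 bases before it. Between pairs of windows, 63.3% (Sprr2b and Sprr2i) to 90.7% (Sprr2d and Sprr2e) of the 150 bases are the same, so the shared letters are not independent of each other.

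Guca2b, for uroguanylin, a peptide that stimulates guanylate cyclase C and fluid secretion in the intestine, had the widest gap of the lower genes that have a gene name. S100g, for calbindin-D9k, a calcium-binding protein of absorptive and uterine epithelium, was lower in the Hoxd-null libraries of both sexes. Their 250-base windows lie at chr4:119658946-119659195 (minus strand) and chrX:162964600-162964849 (minus strand).
Guca2b: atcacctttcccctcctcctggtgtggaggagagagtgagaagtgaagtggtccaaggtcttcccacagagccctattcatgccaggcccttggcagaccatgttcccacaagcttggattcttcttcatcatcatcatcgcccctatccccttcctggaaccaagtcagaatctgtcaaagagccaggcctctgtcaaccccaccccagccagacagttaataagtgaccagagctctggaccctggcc
S100g: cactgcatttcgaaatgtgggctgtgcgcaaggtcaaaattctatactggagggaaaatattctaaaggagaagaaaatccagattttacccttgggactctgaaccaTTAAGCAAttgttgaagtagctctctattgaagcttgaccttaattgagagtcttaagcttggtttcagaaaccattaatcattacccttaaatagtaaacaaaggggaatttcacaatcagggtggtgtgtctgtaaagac
The window of S100g holds 1 C/EBP match, 142 bases before the start, and that of Guca2b holds none of the 5 motifs, which says only that these letters are not in this window.

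These motifs were looked for on both strands in the 250-base windows of 27025 genes, 104 of the higher and 31 of the lower ones among them. TATAAA is in 23.1% of the higher, 25.8% of the lower and 13% of all windows. ATTTGCAT is in 8.65% of the higher, 3.23% of the lower and 1.61% of all windows, and 4 of the 9 higher genes with it are the related Sprr2 genes. TTGCNNAA is in 20.2%, GAGGAAGT in 6.73% and TTTATNG in 16.3% of the higher windows, against 9.55%, 2.44% and 10.2% of all windows. Among the lower windows these shares are 12.9%, 0% and 16.1%. The octamer was chosen after it had been seen in the Sprr2 windows and the other motifs with the separating genes known, so the shares are a description of these windows and no test. A match is not a binding site.

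The libraries stood close to each other in depth, with 1.31-fold between the shallowest (Hoxd-null) and the deepest (compound Hoxd-null) uterus, as read from the spacing of low values. The median difference over all measured genes, the mean of both Hoxd-null libraries minus the mean of the other 3, was -0.00 log2 units. Both Hoxd-null libraries were sequenced in lane 2 of run 134 with the compound Hoxa-null uterus, while the WT and Hoxa-null uteri were in lane 1. The rule itself requires a gap from the compound Hoxa-null library of the shared lane, so meeting it is no check on lane. No Hoxd-null uterus was in lane 1. Both Hoxd-null uteri lay above all 3 others by any amount for 14.7% of measured genes and below for 14.1%. The 14 oviduct and cilia markers with a readable level summed to 835 and 1391 normalised reads in Hoxd-null and compound Hoxd-null uteri, against 1599, 1082 and 1878 in the WT, Hoxa-null and compound Hoxa-null uteri and 119511 in the WT oviduct. In each of these uteri the sum was thus a small part of that in the oviduct.

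The targeted genes did not separate. Hoxd11 (Gene ID 15431) had 165 and 83.1 normalised reads in Hoxd-null and compound Hoxd-null uteri, against 249, 150 and 97.9 in the WT, Hoxa-null and compound Hoxa-null uteri. Hoxd10 (Gene ID 15430) had 1243 and 997 normalised reads in the same Hoxd-null libraries, against 834, 504 and 630. Hoxd9 (Gene ID 15438) stood at centred log2 values of 0.15 and -0.10 in the Hoxd-null libraries, against 0.16, 0.10 and -0.26 in the others. Hoxd11 and Hoxd9 overlapped between the groups, and Hoxd10 was highest in both Hoxd-null uteri. Because a mutant transcript can still be counted, these levels do not check the labels. Hoxa11 (Gene ID 15396), mutated in the other block, had 2765 and 1327 normalised reads in Hoxd-null and compound Hoxd-null uteri, against 2705 in WT and 405 and 313 in Hoxa-null and compound Hoxa-null uteri.

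**Figure D1:**
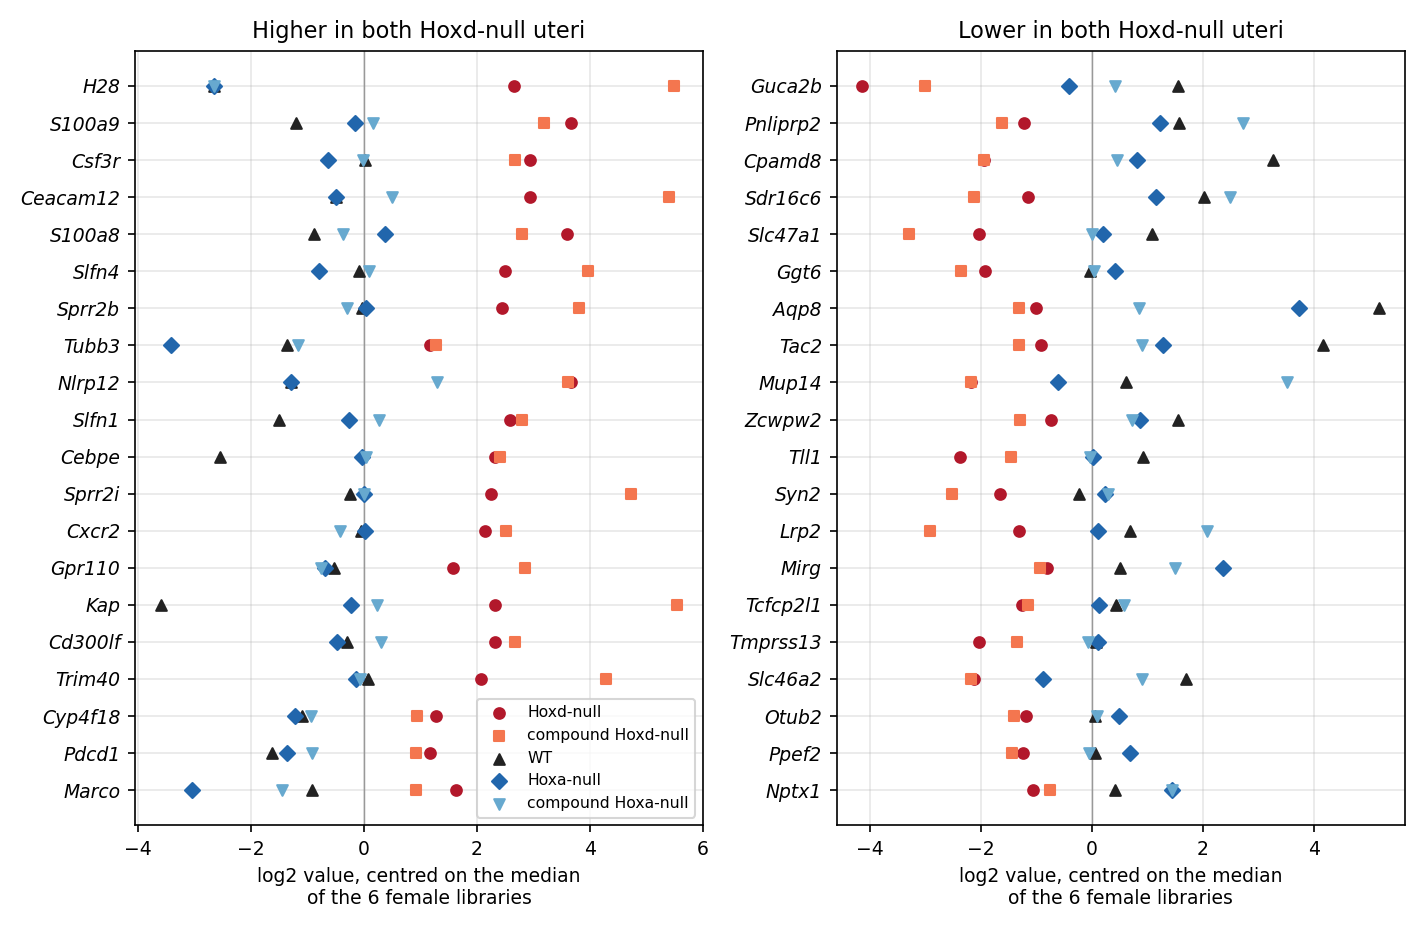
Deposited log2 values, centred on the median of the 6 female libraries, of the 20 named genes with the widest gap on each side (left, higher; right, lower in both Hoxd-null uteri). Each point is 1 pooled library. Red and orange points, the Hoxd-null and compound Hoxd-null uteri, lie 2-fold or more to the right of the 3 other points in the left panel and to the left of them in the right panel, as the rule requires. H28 has the widest gap among the higher genes, at 5.32 log2 units.

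Genes of neutrophils were the list with the most higher genes. Lists and members were chosen with earlier results of these data known, so this ranking is a description and no independent support. Of 26 measured genes of a neutrophil list, 12 separated as higher and 0 as lower, and both Hoxd-null uteri were above all 3 others for 21. Over all measured genes, 0.879% separated as higher and 0.299% as lower. By any amount, 14.7% were above all 3 others and 14.1% below. These shares stand beside the uterus counts of every list below. S100a8, Fpr1, Trem1 and Cebpe reached 20 normalised reads in Hoxd-null libraries only. They count as measured through the group in which they are high, so the filter can raise the count and the median of this list. The median difference of the list was 1.96 log2 units. The summed level of its 29 genes with a readable level overlapped between the groups, with 4634 and 4810 normalised reads in the Hoxd-null libraries, against 2811, 4838 and 1931 in the WT, Hoxa-null and compound Hoxa-null uteri. Padi4, a peptidylarginine deiminase that is also listed with the oestrogen-induced genes, made up much of these sums, with 1429 and 1942 normalised reads, against 1156, 4011 and 904. Of the 29 genes, 3 and 3 were at 1 normalised read in the Hoxd-null libraries, against 9, 9 and 8. In bulk tissue, more neutrophils and more RNA per neutrophil cannot be told apart.

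S100a9 had 255 and 184 normalised reads in Hoxd-null and compound Hoxd-null uteri, against 8.77, 17.9 and 22.5 in the WT, Hoxa-null and compound Hoxa-null uteri. Its partner S100a8 had 110 and 63.5 normalised reads in the Hoxd-null libraries, against 4.93, 11.8 and 7.01. For both genes the Hoxd-null library was highest, the compound Hoxd-null library next, and WT lowest. Retnlg, a resistin-like gene of mouse neutrophils, had 512 and 337 normalised reads in Hoxd-null and compound Hoxd-null uteri, against 3.84 in WT, 14 in Hoxa-null and 139 in compound Hoxa-null uteri. The compound Hoxa-null library thus stood between the Hoxd-null libraries and the other pair.

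The receptors and the signalling genes of the list moved with these. Csf3r, the receptor for the growth factor G-CSF, stood at centred log2 values of 2.94 and 2.68 in Hoxd-null and compound Hoxd-null uteri, against 0.01, -0.64 and -0.01 in the others. Cxcr2, the chemokine receptor that draws neutrophils out of blood, stood at 2.15 and 2.52, against -0.06, 0.01 and -0.42. Both receptors had a gap of more than 4-fold between the groups. Fpr1, which senses formylated bacterial peptides, had 34.7 and 40.2 normalised reads in the Hoxd-null libraries, against 4.39, 5.67 and 16. Trem1, an amplifier of the neutrophil and monocyte response, had 18 and 39.3 normalised reads, against 5.48, 1 and 3, where 1 normalised read is the value given to a library with no or too few reads. Cebpe, the transcription factor of late granulocyte maturation, had 63.5 and 67.4 normalised reads, against 2.19, 12.5 and 13. That the groups did not overlap follows from the rule. The nearest other library was the compound Hoxa-null uterus for Fpr1 and Cebpe and WT for Trem1. Ncf4, a subunit of the NADPH oxidase, had 147 and 146 normalised reads, against 57, 52.7 and 57.9, with little spread within either group. Ncf1, another subunit of that oxidase, stood at centred log2 values of 1.83 and 1.62 in the Hoxd-null libraries, against -0.18, -0.69 and 0.18. Clec4d, a lectin receptor of myeloid cells, stood at 1.99 and 2.33, against -1.28, -1.23 and 0.73.

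Granule genes that are made early, in bone marrow precursors, did not separate. Elane, for neutrophil elastase, had 140 and 93.2 normalised reads in Hoxd-null and compound Hoxd-null uteri, against 95.8, 70.7 and 112 in the others, so the groups overlapped. Prtn3, for proteinase 3, had 26.8 and 20.7 normalised reads, against 22.1, 11.2 and 7.94, and lay above all 3 only in the Hoxd-null library. Mpo, for myeloperoxidase, was above all 3 others in both Hoxd-null libraries by less than 2-fold, with 47.3 and 19.7 normalised reads, against 12.2, 12.5 and 6.74. Camp and Ngp, of the secondary granules, stayed under 4 normalised reads in all 5 uteri, and Ly6g had the same value in all of them. The 9 erythrocyte and platelet genes with a readable level, which mark blood in the tissue, summed to 256 and 181 normalised reads in the Hoxd-null libraries, against 92.5, 201 and 197 in the WT, Hoxa-null and compound Hoxa-null uteri. Their sums overlapped between the groups, and 0 of the 9 measured genes of that list separated. The share of blood in the neutrophil values was not tested.

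**Figure D2:**
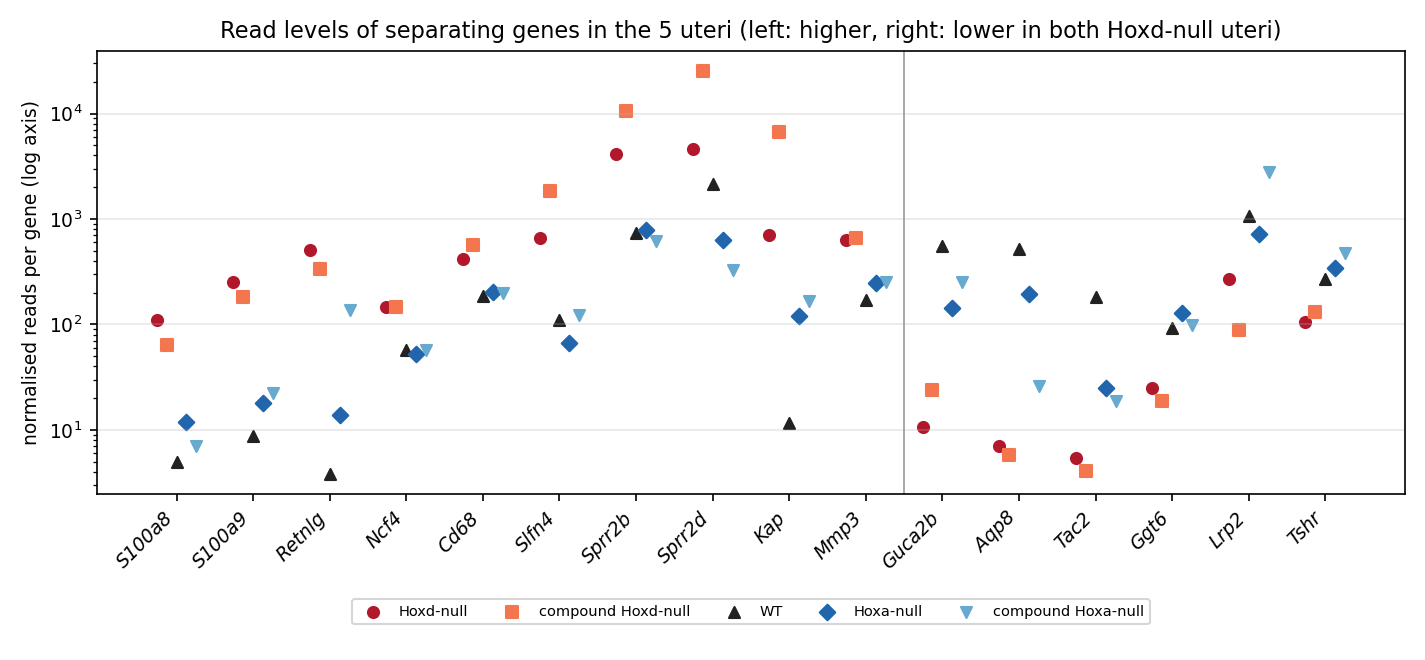
Normalised reads per gene on a log axis for 16 separating genes, 10 higher (left of the line) and 6 lower (right of it), with 1 point per pooled uterus library in the order Hoxd-null, compound Hoxd-null, WT, Hoxa-null, compound Hoxa-null. Levels are not per gene length, so only points of the same gene can be compared. For S100a8, S100a9, Slfn4 and Sprr2b the Hoxd-null points stand well clear of the others, while for Aqp8 and Tac2 the 3 other uteri are themselves spread widely, with WT at 521 and 183 normalised reads.

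Macrophage and monocyte genes were higher as well, by less. Of 28 measured, 5 separated as higher and 0 as lower, against 0.879% and 0.299% of all measured genes. Both Hoxd-null uteri were above all 3 others for 18, against 14.7% of all measured genes. The median difference was 1.07 log2 units. Cd68, a lysosomal protein of macrophages, had 414 and 561 normalised reads in Hoxd-null and compound Hoxd-null uteri, against 185, 203 and 198 in the WT, Hoxa-null and compound Hoxa-null uteri. Ms4a7, a membrane protein of tissue macrophages, had 323 and 316 normalised reads, against 141, 89.8 and 97.1. Fcgr1, the high-affinity IgG receptor, had 165 and 202 normalised reads, against 81.7, 78.9 and 74. The gaps of these genes lay not far above the threshold of 1 log2 unit, at 1.03 for Cd68, 1.16 for Ms4a7 and 1.02 for Fcgr1. The 3 other uteri had similar values for Cd68 and Fcgr1. Marco, a scavenger receptor for bacteria, had 25.4 and 15.5 normalised reads, against 4.39, 1 and 3. C1qc, of complement component C1q, stood at 1.03 and 1.06 centred log2 units, against -0.04, 0.03 and -0.03, and was just inside the threshold. C1qa, of the same protein, was just outside it, at 1.04 and 0.999, against -0.00, 0 and -0.02, so the rule splits genes with near-equal values. Sfpi1, for the transcription factor PU.1 of myeloid cells, had 233 and 246 normalised reads, against 63.2, 93 and 99.5.

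Markers of the lymphoid lineages were higher in part. Cd4, the co-receptor of helper T cells, had 75.7 and 84.6 normalised reads in Hoxd-null and compound Hoxd-null uteri, against 14.3, 23.6 and 24, and Ccr7, which guides lymphocytes and dendritic cells to lymph nodes, stood at centred log2 values of 0.63 and 2.20, against -0.38, -0.71 and -0.92. These were the 2 of 15 measured T cell genes that did, and the list's median difference was 1.13 log2 units. In the B and plasma cell list 1 of 14 separated, Cd22, an inhibitory co-receptor of B cells, at 1.82 and 1.98 centred log2 units, against 0.05, -0.80 and -0.05. The median of that list was 0.74, and it was 0.16 against the compound Hoxa-null uterus of the shared lane alone. Cd72 and Igk-V, outside that list, separated as higher too. Klrb1c, the NK1.1 receptor of natural killer cells, stood at 1.44 and 1.95, against 0.40, -0.40 and -0.72. It was the 1 of 14 measured genes of the natural killer and cytotoxic list to separate. Klra2 and Klra10, which are outside this list, separated as higher too. That list as a whole was not above WT: its median minus WT was -0.26 and -0.75 log2 units in the Hoxd-null libraries, and -2.40 and -2.25 in the Hoxa-null and the compound Hoxa-null library. Siglec5, a sialic acid-binding receptor listed here with the eosinophil genes, had 93.1 and 64 normalised reads, against 4.93, 9.45 and 25, and was the 1 of 17 eosinophil and mast cell genes to separate. The median of these 17 genes minus WT was 1.32 and 1.91 in the Hoxd-null libraries, and 1.15 and 1.32 in the Hoxa-null and the compound Hoxa-null library. In the dendritic cell and MHC class II list 0 of 19 separated, and 9 were above all 3 others, against 14.7% of all measured genes.

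**Figure D3:**
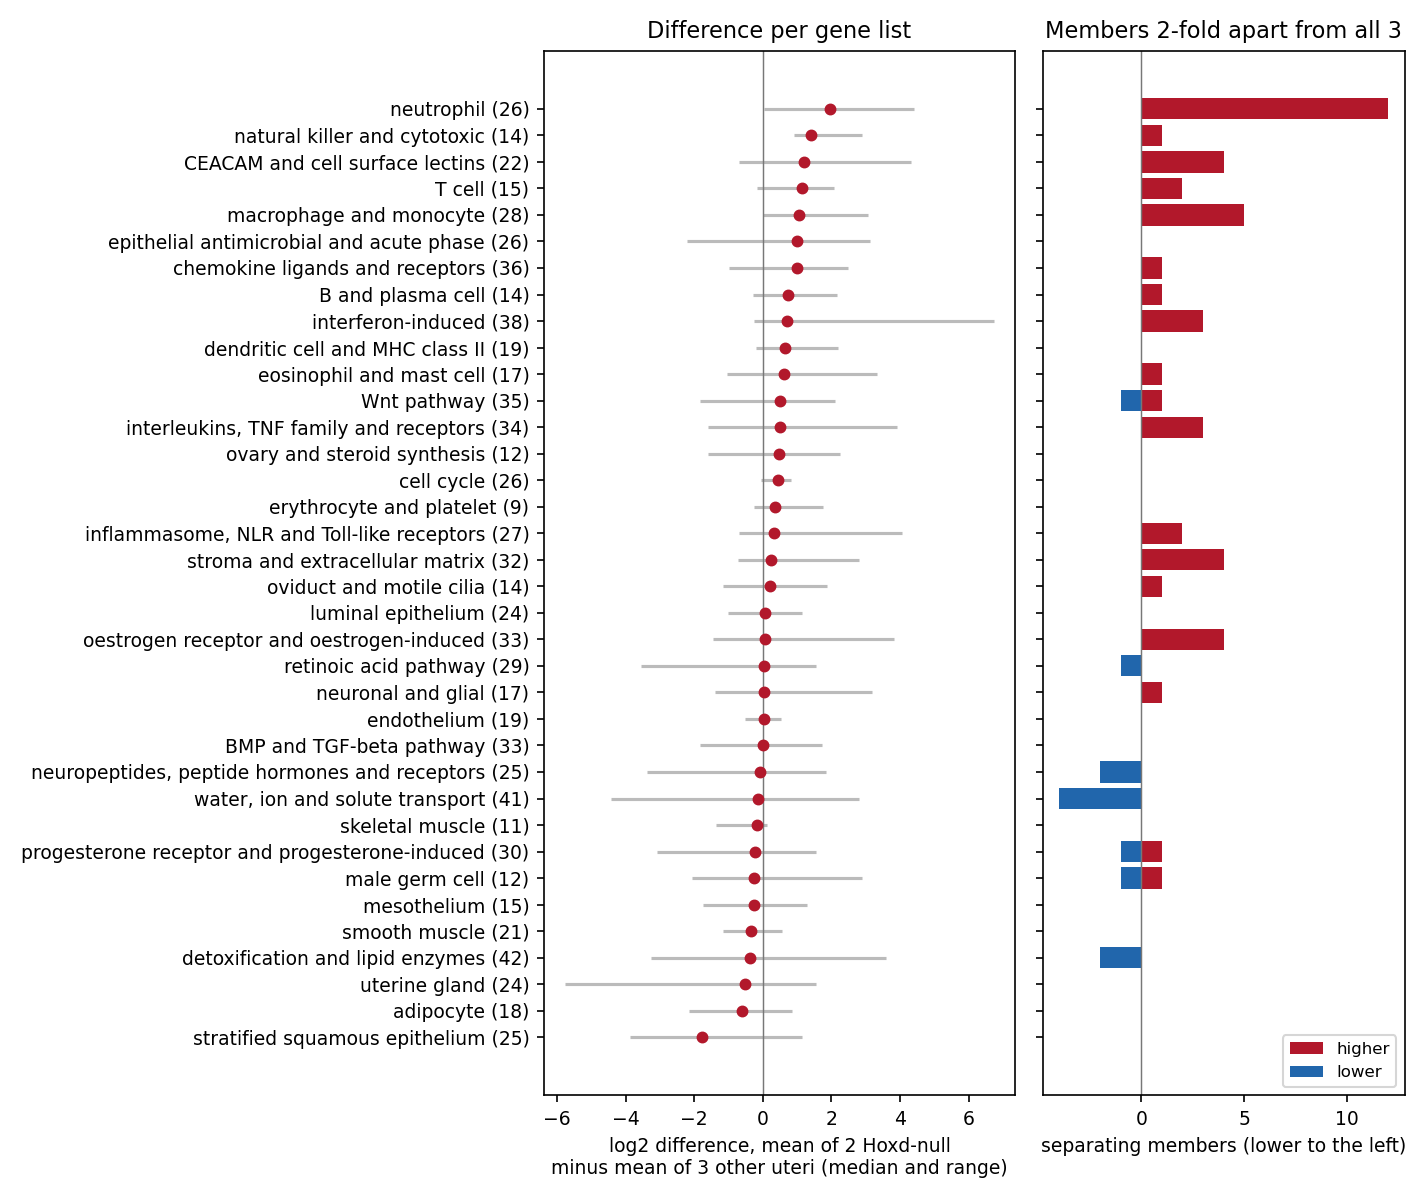
Left, the median (point) and range (line) of the log2 difference, mean of both Hoxd-null uteri minus mean of the 3 others, for the measured genes of each list, whose number stands in brackets. Right, the number of list members that separate as higher (red) or lower (blue, to the left). Neutrophil genes have the highest median, at 1.96 log2 units, and the most separating members, 12, while the stratified squamous epithelium list has the lowest median, at -1.77, with 0 separating members.

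Cytokines, innate sensors and matrix proteases followed. In the interleukin and TNF list 3 of 34 measured genes separated, all higher. Il1b, for the pro-inflammatory interleukin-1 beta, stood at centred log2 values of 2.06 and 2.23 in Hoxd-null and compound Hoxd-null uteri, against -0.51, -0.85 and 0.51 in the WT, Hoxa-null and compound Hoxa-null uteri. Il1rn, its receptor antagonist, stood at 0.89 and 1.85, against -0.15, -1.68 and -0.54. Agonist and antagonist were thus higher together. Il24, an epithelial cytokine of the interleukin-10 family, had 18 and 39.3 normalised reads, against 5.48, 1 and 1. Nlrp12, an NLR protein of myeloid cells, had 31.1 and 29.8 normalised reads, against 1, 1 and 6.01, and Clec7a, the receptor for fungal beta-glucan, had 274 and 197, against 94.4, 34.5 and 85.6. They were the 2 of 27 inflammasome, NLR and Toll-like receptor genes that separated. Of 36 measured genes in a list of chemokine ligands and receptors 1 separated, the receptor Ccr1. It stood at 1.08 and 1.58 centred log2 units, against -1.56, -0.08 and 0.08. The chemokine receptors Cxcr2 and Ccr7, given above, separated too but were placed in the neutrophil and T cell lists. The median difference of the chemokine list was 1.002, and it was 0.43 against the compound Hoxa-null uterus alone.

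Among 38 measured interferon-induced genes 3 separated. The Schlafen gene Slfn4 had 654 and 1823 normalised reads in Hoxd-null and compound Hoxd-null uteri, against 109, 66.7 and 123, and its relative Slfn1 had 149 and 174, against 8.77, 20.8 and 30. The third was H28, listed under its other symbol Ifi44l, with 40 and 282 normalised reads, against 1, 1 and 1. The classical members of the list, such as the Ifit and Oas genes, did not separate. The list's median difference was 0.71 log2 units, and 16 of its genes were above all 3 others, against 14.7% of all measured genes. Its median minus WT was 0.14 and 0.89 in the Hoxd-null libraries, and -0.72 and -0.34 in the Hoxa-null and the compound Hoxa-null library.

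Of 32 measured stroma and matrix genes 4 separated, all higher and all of them matrix metalloproteinases. Mmp3 (stromelysin-1) had 629 and 662 normalised reads in Hoxd-null and compound Hoxd-null uteri, against 170, 248 and 252 in the others. Mmp10 (stromelysin-2) had 131 and 188, against 63.3, 15.6 and 18.4, and Mmp13, a collagenase, had 34.7 and 11, against 3.29, 3.78 and 3. Mmp11 (stromelysin-3) stood at 2.09 and 2.43 centred log2 units, against 0.55, -1.63 and -0.55. WT was the nearest library for Mmp10 and Mmp11, and for Mmp3 the Hoxa-null and compound Hoxa-null uteri were. The median difference of the list was 0.23 log2 units.

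The Sprr2 genes, whose promoters are printed above, had the highest read levels in the compound Hoxd-null library. Sprr2b had 4137 and 10642 normalised reads in Hoxd-null and compound Hoxd-null uteri, against 738, 782 and 619 in the WT, Hoxa-null and compound Hoxa-null uteri. Sprr2d had 4640 and 25349 normalised reads, against 2136, 635 and 326. Sprr2e had 2628 and 5865, against 1067, 1282 and 675, and Sprr2i had 1194 and 6683, against 214, 252 and 253. In each the compound Hoxd-null uterus was more than 2-fold above the Hoxd-null uterus, while the lack of overlap between the groups follows from the rule. Related copies can share reads, so the split among these genes is uncertain. Sprr2 genes are known to be induced by oestrogen in the mouse uterus. Of 33 measured genes of the oestrogen list 4 separated, Sprr2b, Sprr2d, Sprr2e and Wnt4, a Wnt ligand needed for decidualisation in mice, and the list's median was 0.05. Wnt4 stood at 0.78 and 1.17 centred log2 units, against -0.72, -0.47 and -0.53. All females were collected in diestrus, and a difference in the day of the cycle between pools cannot be told apart from genotype.

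Other genes with wide gaps belong to several classes. Kap, for kidney androgen-regulated protein, had 706 and 6643 normalised reads in Hoxd-null and compound Hoxd-null uteri, against 11.8, 122 and 166. The Hoxd-null libraries were 9-fold or more apart from each other, and their lack of overlap with the rest follows from the rule. Ceacam12, a member of the carcinoembryonic antigen family, had 10.8 and 59.4 normalised reads, against 1, 1 and 2. Tubb3, the beta-tubulin of neurons, had 784 and 840, against 136, 32.7 and 156. In the neuronal and glial list Tubb3 was the 1 of 17 that separated, and 4 genes of that list were below all 3 others. In a list of CEACAM and lectin genes 4 of 22 separated, Ceacam12, Clec12a, Cd300e and Cd300lf, with a median difference of 1.19 log2 units.

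The 47 lower genes were fewer and of other kinds. In a list of water, ion and solute transport 4 of 41 measured genes separated as lower and 0 as higher, although the median of the list was only -0.13 log2 units. Guca2b had 10.8 and 23.7 normalised reads in Hoxd-null and compound Hoxd-null uteri, against 558, 143 and 253 in the WT, Hoxa-null and compound Hoxa-null uteri. Its relative Guca2a, for guanylin, was too low to be counted, at 1 and 1 normalised reads, against 15.3, 2.84 and 16. Aqp8, a water channel, had 7.11 and 5.76 normalised reads, against 521, 193 and 25.9. Both Hoxd-null libraries were low for these genes, and the 3 others spanned nearly 4-fold for Guca2b and 20-fold for Aqp8, with WT highest. S100g stood at -0.57 and -1.07 centred log2 units, against 1.97, 0.57 and 1.59, and Slc47a1, an exporter of organic cations, had 2.40 and 1 normalised reads, against 20.9, 11.3 and 9.93. Slc46a2, a solute carrier, had 4.79 and 4.57 normalised reads, against 68, 11.3 and 39.1. Slc16a12, another carrier of the plasma membrane, had 86.2 and 66.2, against 181, 174 and 512.

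Lrp2, for megalin, the endocytic receptor that takes up filtered proteins and carriers of vitamins, had 268 and 87.8 normalised reads in Hoxd-null and compound Hoxd-null uteri, against 1075, 715 and 2800. Ggt6, of the gamma-glutamyltransferase family, had 25.2 and 18.7 normalised reads, against 93.6, 127 and 98.1. The 3 other uteri were close to each other for Ggt6, whereas for Lrp2 the compound Hoxa-null library was the highest. Pnliprp2, a lipase, had 3.59 and 2.74, against 25.2, 19.9 and 56.1, and Sdr16c6, a short-chain dehydrogenase, had 3.59 and 1.83, against 32.8, 18 and 45.1. These lower values rest on few reads each. Ggt6 and Pnliprp2 were the 2 of 42 measured detoxification and lipid enzymes that separated, and Sdr16c6 the 1 of 29 genes of the retinoic acid pathway.

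Signalling genes were among the lower ones too. Tac2, for the tachykinin neurokinin B, had 5.38 and 4.04 normalised reads in Hoxd-null and compound Hoxd-null uteri, against 183 in WT, 24.8 in Hoxa-null and 19 in compound Hoxa-null uteri. Rln1, for relaxin, had 7.19 and 1, against 15.9, 18.8 and 72. They were the 2 of 25 measured neuropeptide and hormone genes that separated. Tshr, the receptor for thyroid-stimulating hormone, had 105 and 133 normalised reads, against 269, 344 and 471. Wnt11, a Wnt ligand, stood at -1.36 and -1.09 centred log2 units, against -0.03, 0.03 and 1.85, the opposite side to Wnt4. These were the 2 of 35 measured Wnt pathway genes that separated. Nptx1 and Syn2, known from synapses, were lower as well. Nptx1 had 76.6 and 94.7 normalised reads, against 215, 439 and 437, and Syn2 had 94.4 and 52.1, against 255, 350 and 366.

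Beside the 4 matrix metalloproteinases of the stroma list, no gene separated among 24 gland genes, 24 luminal epithelium genes, 21 smooth muscle genes, 19 endothelial genes and 26 cell cycle genes. Over all measured genes 0.879% were higher and 0.299% lower, so 0 in lists of this size is near that share. The gland list had a median difference of -0.51 log2 units, and its widest member was Prss28, an implantation serine proteinase, with 1.20 and 1 normalised reads in Hoxd-null and compound Hoxd-null uteri, against 7280 in WT but 28.4 in Hoxa-null and 1 in compound Hoxa-null uteri. The WT pool alone was high. Foxa2, the transcription factor of the glands, had 146 and 25.6 normalised reads, against 286, 99.7 and 69.1, and overlapped. The stratified squamous list had a median of -1.77 with 0 of 25 separating. In the Hoxa-null uterus Krt6b of that list reached 13003 normalised reads, against 39 in WT and 131 in the compound Hoxa-null uterus, and it had 10.8 and 144 in Hoxd-null and compound Hoxd-null uteri. That median thus rests on libraries that differ among themselves. The cell cycle list had 11 of 26 genes above all 3 others, against 14.7% of all measured genes, with differences of at most 0.81 log2 units.

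The position of separating genes relative to the mutated block was examined next. On mm9 the starts of Hoxd11, Hoxd10 and Hoxd9 lie between chromosome 2 positions 74520450 and 74535820. Within 20 Mb on either side, 1 of 205 measured genes was higher (0.488%) and 3 were lower (1.46%), against 0.884% and 0.284% of measured genes elsewhere. The higher gene was Sfpi1, and the lower ones were Lrp2, Dapl1 and the predicted transcript 4932414N04Rik. The median absolute difference was 0.21 log2 units inside the window and 0.22 outside. Within 10 Mb there were 0 higher and 2 lower genes, Lrp2 and 4932414N04Rik. On chromosome 14, 8 predicted genes with starts between positions 4437802 and 6726985 were higher. They were 8 of 22 measured genes in the first 8 Mb, against 0.879% of all measured genes. Similar copies in such a block can share reads, so these genes are not independent of each other.

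**Figure D4:**
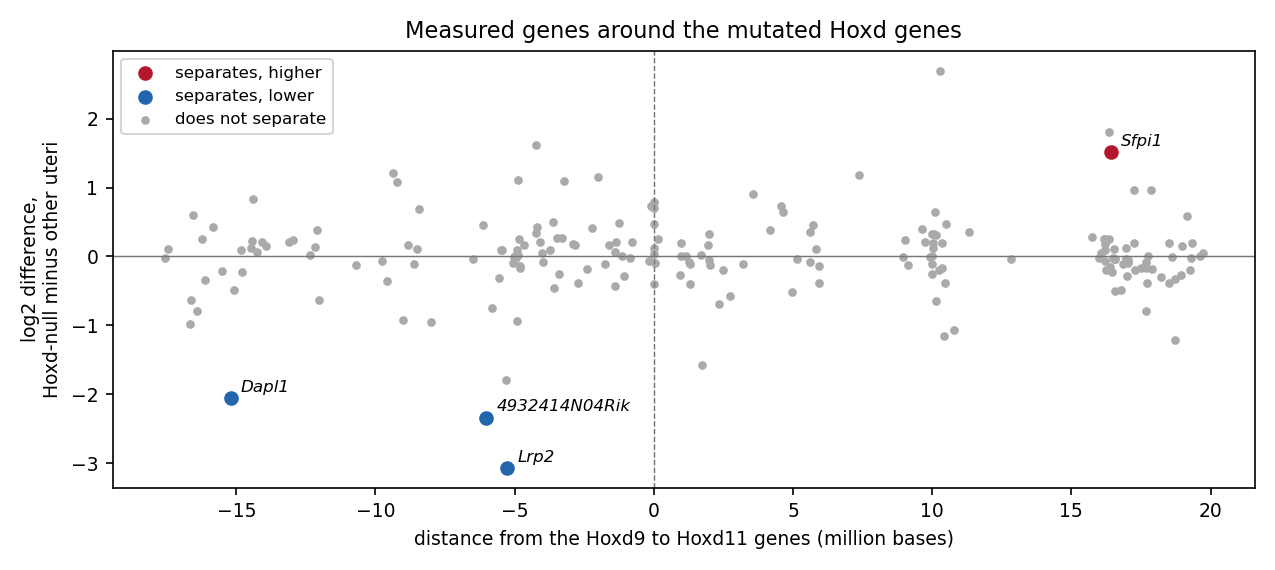
Log2 difference of measured genes, mean of both Hoxd-null uteri minus mean of the 3 others, against the distance of the gene start from the Hoxd9 to Hoxd11 genes in megabases (Mb). Each point is 1 gene; coloured points separate. The median absolute difference inside the window, 0.21 log2 units, is close to the 0.22 of all other genes, and the 3 lower genes lie on the left side.

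The vasa deferentia, which the uterus rule did not use, was examined next. There, 21 of 16049 measured genes (0.131%) were 2-fold higher and 90 (0.561%) were 2-fold lower in both Hoxd-null libraries. Of the 138 genes higher in the Hoxd-null uteri, 102 were measured in the vas deferens, and 0 of them separated there in either direction. By any amount, both Hoxd-null vasa deferentia were above all 3 others for 9 of them and below for 5, against 12.7% and 12% of all measured genes. The median vas deferens difference of the 102 genes was 0.02 log2 units, and that of all genes was -0.02. Of 23 neutrophil genes and 28 macrophage and monocyte genes measured in the vas deferens, 0 separated, and the list medians were 0.14 and -0.13 log2 units. Sorcs1, a sorting receptor, had the largest gap of these 9, with 48.7 and 17.4 normalised reads in the Hoxd-null library and the compound Hoxd-null library of the vas deferens, against 11.3, 8.25 and 4.88 in the WT, Hoxa-null and compound Hoxa-null vas deferens. In the uterus it had 13.7 and 46.8, against 4.93, 1.89 and 2.50. S100a9 was not higher in the male tissue, with 14.1 and 36.8 normalised reads in the Hoxd-null libraries, against 33.1, 30.7 and 117. For 4 of the 5 vas deferens libraries the sequencing run was that of the uteri, and the compound Hoxd-null vas deferens was from another run.

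S100g was the 1 gene that separated in both tissues. Of the 47 lower genes 25 were measured in the vas deferens, and S100g was the only one of them that was 2-fold lower in both Hoxd-null libraries there. In the vas deferens it had 5.87 and 1 normalised reads in Hoxd-null and compound Hoxd-null libraries, against 28.2, 34.1 and 35.3. The gap was 2.26 log2 units in the vas deferens and 1.14 in the uterus. The median difference of the 25 genes in the vas deferens was -0.26 log2 units.

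**Figure D5:**
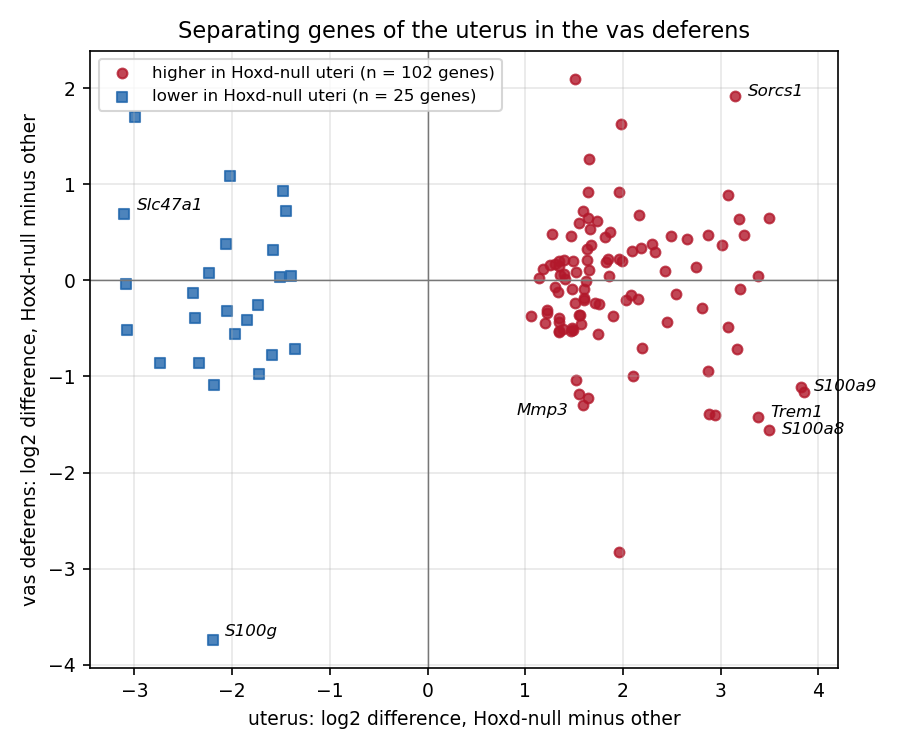
Log2 difference in the vas deferens (vertical) against that in the uterus (horizontal), each the mean of both Hoxd-null libraries minus the mean of the 3 others, for the 102 higher (red) and 25 lower (blue) separating genes of the uterus that were measured in the vas deferens. The horizontal spread follows from the rule. The red points lie around 0 on the vertical axis, with a median of 0.02, and S100g is the blue point low in both tissues.

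The WT oviduct, the other female tissue, was set beside the WT uterus for the same genes. The WT oviduct minus the WT uterus had a median of -0.77 log2 units over the 138 higher genes and -0.15 over the 47 lower genes, against -0.03 over all measured genes. Of the higher genes 21 were 2-fold higher and 54 were 2-fold lower in the oviduct, against 13% and 11.9% of all measured genes. Of the lower genes 9 were higher and 15 were lower in the oviduct. The WT uterus enters both comparisons, and the oviduct was sequenced in another run than the uteri, so tissue and run cannot be told apart. Sprr2b, for example, had 14.7 normalised reads in the oviduct and S100a9 had 6.69.

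The Hoxd-null pair was not uniform. For 116 of the 138 higher and 40 of the 47 lower genes the compound Hoxd-null library was within 2-fold of the Hoxd-null library. It was 2-fold higher for 21 of the higher genes, among them all 4 Sprr2 genes, Kap, H28, Slfn4, Il24, Trem1 and Ccr7, and 2-fold lower for 1, Mmp13. Over all measured genes it was 2-fold higher for 4.89% and 2-fold lower for 3.72%. The widest difference between them was in Hsd3b1. Ybx1-ps2, Nox1 and Klk1b5 were also higher in the compound Hoxd-null uterus, by 6.53, 5.50 and 4.71 log2 units. Further genes of steroid synthesis, which mark ovarian tissue, were among the wider ones too. Hsd3b1, which encodes a steroid dehydrogenase of that pathway, had 270 normalised reads in the compound Hoxd-null uterus and 1 in the Hoxd-null uterus, against 1, 20.3 and 2 in the WT, Hoxa-null and compound Hoxa-null uteri and 4912 in the WT oviduct. Cyp11a1, for the side-chain cleavage enzyme, had 178 and Lhcgr, the luteinising hormone receptor, had 20.4 in the compound Hoxd-null uterus, against 4.19 and 1 in the Hoxd-null uterus. Over 18 ovary and steroid genes with a readable level, the sum was 314 and 809 normalised reads in Hoxd-null and compound Hoxd-null uteri, against 251, 404 and 235 in the other uteri and 12024 in the oviduct. Of these 18, 6 and 5 were at 1 normalised read in the Hoxd-null libraries, against 5, 2 and 2. Cyp19a1 of that list was at 1 normalised read in all 5 uteri. None of the 12 measured ovary genes separated. The part of ovarian tissue in the values of the compound Hoxd-null library was not tested. On the other side, Ttr, for transthyretin, had 1 normalised read in the compound Hoxd-null uterus, against 70.2 in the Hoxd-null uterus, with 143, 16.1 and 7.45 in the others, and Il13ra2, a decoy receptor for interleukin-13, had 9.15 and 293, with 482, 76.6 and 109.

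The nearest of the 3 other libraries was the compound Hoxa-null uterus for 69 of the 138 higher genes, WT for 51 and Hoxa-null for 18. For the 47 lower genes these numbers were 16, 17 and 14. The compound Hoxa-null uterus carries 1 mutant Hoxd copy and shares the lane of the Hoxd-null pair, and these cannot be told apart. The mean of the Hoxd-null pair was above the compound Hoxa-null library by a median of 1.58 log2 units over the higher genes, above WT by 1.81 and above the Hoxa-null library by 2.12. At the threshold itself the last higher genes counted were Ccr1, Ccr7, C1qc, Alpk2 and Relt, with gaps of 1.001 to 1.009 log2 units. The first ones not counted were Coro1a, C1qa and 3 predicted transcripts, with gaps of 0.994 to 0.999. Among the lower genes, Slc17a4, Slc16a12, Tshr and Dapl1 lay just inside, with gaps of 1.002 to 1.027, and Sgms2, Tmc7, Es22 and Ncald just outside, with gaps of 0.98 to 0.99.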

How the data were processed

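The RNA-seq values were deposited by the authors as log2 values, each gene centred on its median over the 6 libraries of its sex. Total RNA and TruSeq libraries were used per the labels, and TopHat and mm9 per the submitters' processing notes. How reads were counted and normalised is not given in the sources used here. Run and lane come from the file headers. Total counts are unknown. The spacing of low values showed a floor, taken as 1 normalised read, and the value of 1 read in each library, from which relative depth and, for part of the genes, normalised reads (reads times that value) were recovered. A value counted as whole within 0.02 reads. Reads come in hundredths for many genes, so a gene on whole reads with 100 or more in every library could be read 100 times too low. Genes with 1 read or more in every library whose variance of reads was under 0.2 times the mean were therefore left unread. In 48 female genes a library came out below this floor, so their scale may be read too low. Levels are not per length. With 1 library per group no test was made. Tables were matched by Gene ID, and symbols of several Gene IDs were left out as an alternative. The gap, the minimum of reads, the scaling, the libraries and the lane were varied. Counting was tested on simulated data. Python 3.11.15, pandas 2.3.3 and NumPy 2.4.6 were used.

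Genes to be named were drawn from a rule. It covered the 25 widest gaps on each side, separating genes of 42 lists and the targeted Hox genes. It also covered up to 4 members with the largest difference per list and 5 genes on either side of each threshold. Separating genes near Hoxd or in the vas deferens belonged to it as well. So did the 10 widest differences between the Hoxd-null uteri in each direction. Not every gene that the rule covers is described above. Gpr110, Trim40, Mc4r and Col22a1, for example, are not, so the named genes are a choice from this set. Genes outside this rule, such as Elane, Camp and Guca2a, were chosen after their values were seen. One result for a single gene is not reported here. Members and lists were chosen with earlier results of these data known.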

Additional observations from a re-analysis of the deposited data

Results flagged for a closer look

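For 6 separating genes of the uterus, both Hoxd-null vasa deferentia lay on the other side of all 3 other vas deferens libraries. The difference between the tissues was not tested. S100a8, higher in the Hoxd-null uteri, was lower in the Hoxd-null vasa deferentia by a gap of 0.0967 log2 units, with centred values of -0.41 and -0.61 in Hoxd-null and compound Hoxd-null libraries, against -0.31 in WT, 1.61 in Hoxa-null and 1.83 in compound Hoxa-null. Mmp3 was lower there by a gap of 0.5706, the widest of the 6, with 13.7 and 10.3 normalised reads, against 21.8, 44.2 and 20.3. The myeloid genes Sirpb1b, Tyrobp and C1qc were lower there by gaps of 0.2295, 0.0765 and 0.1327. Slc47a1, lower in the Hoxd-null uteri, was higher in the Hoxd-null vasa deferentia by a gap of 0.396. All 6 gaps were under 2-fold.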

How the results depend on the processing

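No paired analysis was possible because there is 1 library per genotype and all replicate numbers are 1. Fewer libraries relax the rule, so counts grow by construction. The 184 higher genes became 481 at a 1.5-fold gap, 22 at 4-fold, 116 with a minimum of 50 normalised reads, 237 to 537 without 1 library, 868 within the shared lane, 649 against the mean of the 3 others and 835 against WT alone. The 79 lower genes became 253, 12, 37, 165 to 361, 1127, 532 and 688 under the same settings, and 47 with a minimum of 20 reads. The 138 measured higher genes became 168 to 389 without 1 library, 677 in the lane, 615 against WT alone and 89 without genes of unread level. The 47 measured lower genes became 99 to 262, 779, 396 and 30. Reading unsettled scales at their lower limit left 131 and 43, and taking levels below the floor as unread gave 139 and 49. These settings for measured genes, and the lane for lists, were added after seeing the data.

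The medians of neutrophil genes (1.96, with a range of 1.55 to 2.26) and macrophage genes (1.07, with a range of 0.87 to 1.25) kept their direction and stayed within 1.5 times under all 8 settings run. All settings but the minimum of 50 normalised reads used the same members. These were chosen with earlier results of these data known, so the stable medians are no independent support. B and plasma cell genes (0.74) ranged over 0.56 to 1.13 without 1 library, with 1.29 against WT alone and 0.16 within the lane. Eosinophil and mast cell genes (0.62) gave 1.68 against WT alone, and chemokine genes (1) gave 0.43 within the lane. The transport median (-0.13) turned to 0.20 without the Hoxd-null and 0.02 without the compound Hoxa-null library, ranged over -0.28 to 0.20 without 1 library, and was -0.0065 against WT alone, so it has no direction. At 1.5-fold 1 higher gene (Sorcs1) separated in the vas deferens in place of 0, and within 10 Mb of Hoxd 0 were higher in place of 1. The causes were not tested. Depth limits the low values, which move in coarse steps.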

Other observations

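In the smooth muscle list 8 of 21 measured genes were below all 3 others in both Hoxd-null uteri, against 14.1% of all measured genes, and 0 separated. The median difference of the list was -0.34 log2 units, but against WT alone the Hoxd-null library stood at a median of 0.07 and the compound Hoxd-null library at -0.25, with the compound Hoxa-null library at 0.58. Of 8 measured Hoxb genes, 5 were below all 3 others, 0 separated, and the list median was -0.38. Sycp2, a protein of the meiotic chromosome axis, was higher in both Hoxd-null uteri, at centred log2 values of 0.98 and 1.87 in Hoxd-null and compound Hoxd-null uteri, against -2.74 in WT, -0.36 in Hoxa-null and -1.28 in compound Hoxa-null uteri. Wdr16, a gene of motile cilia, was higher too, at 0.54 and 0.85, against -1.91, -0.54 and -1.07, and was the 1 of 14 measured oviduct and cilia genes that separated.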
